A study of Arabidopsis thaliana with 6 samples.

Results

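The genes described here encode proteins of the large (60S) subunit of the cytosolic ribosome, in seedling shoots of Arabidopsis thaliana with and without overexpression of KLU. They were taken from a list of 59 loci for 23 ribosomal proteins, and a locus was kept if the platform annotation listed a probe set for it alone. That left 38 genes for 18 ribosomal proteins, each with 1 probe set, among 13356 genes measured in this way. Of the other 21 loci, 4 were reported only by 2 probe sets that each stand for a pair of genes, and 17 had no probe set listed, among them all listed loci for L3, L5, L10, L11 and L24.

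The genotypes, both in the Col-0 background, were compared on 3 single-colour ATH1 arrays each. Wild-type seedlings (WT) were set against 35S::KLU seedlings, in which the strong and nearly constitutive 35S promoter drives KLU, a cytochrome P450 gene that promotes organ growth. Both genotypes shared plates of MS medium of reduced strength with 16 h of light at 21 °C, and were harvested at growth stage 1.03 in 3 independent experiments, with 5 seedlings pooled per sample. Whether the 35S::KLU line came from 1 insertion is not given in the sources used here. KLU itself had 0 listed probe sets, so the genotypes were not checked against the transgene.

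The cytosolic ribosome of plants joins a 40S subunit, which reads the mRNA, to a 60S subunit, which forms the peptide bond and holds the tunnel through which the new chain leaves. In Arabidopsis nearly every ribosomal protein is encoded by a small family of paralogs, and their transcripts are abundant where cells grow and divide. Loss of single 60S genes in Arabidopsis is known for narrow, pointed leaves and for enhancing defects of leaf polarity. The assignment of loci to ribosomal proteins below follows the standard Arabidopsis naming and is background, since the gene table used here mostly gives the locus alone.

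The signals of the 60S genes lay slightly lower in 35S::KLU as a group, and few of the single differences passed the test. Of the 38 genes, 36 had a lower mean in 35S::KLU, and the median difference was -0.23 on the log2 scale, which is 15.0% lower, where the median over all 22746 probe sets was -0.02 and 55.5% of them were below 0. By limma, with p-values adjusted over all probe sets by Benjamini and Hochberg, 3 genes fell (7.89%), 0 rose and 35 did not pass an adjusted p of 0.05, and 4.27% of all probe sets passed in the lower and 4.05% in the higher direction. Without the adjustment, 16 of the 38 had a p under 0.05, all 16 of them lower in 35S::KLU, as had 12.4% of all probe sets. The differences ran from -0.48 to 0.07, with quartiles of -0.29 and -0.17. In whole shoots, fewer cells of a type and less RNA per cell cannot be told apart.

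**Figure D1:**
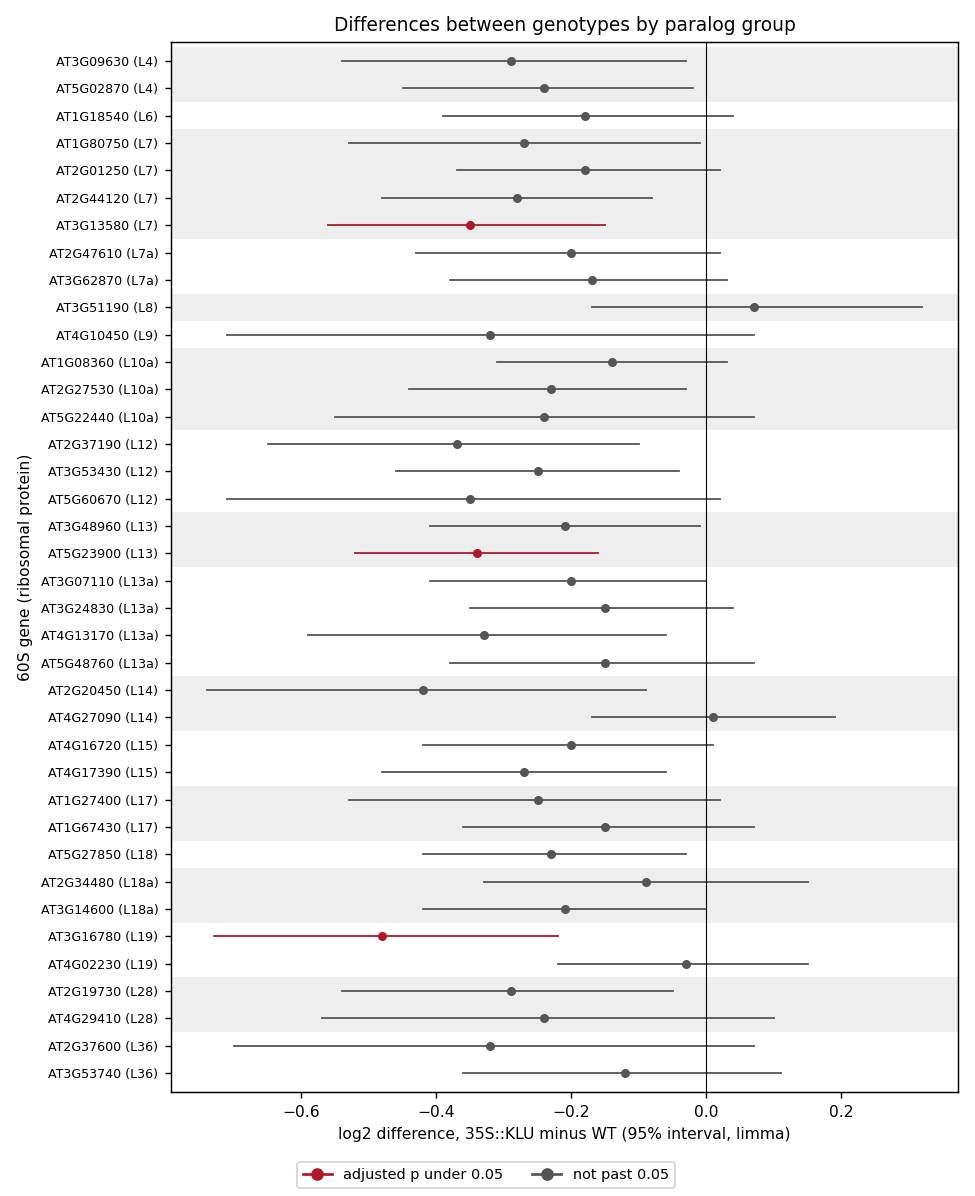
Log2 difference between genotypes (35S::KLU minus WT, x axis) for each of the 38 measured 60S genes (y axis, locus with the ribosomal protein in brackets, shading by paralog group); points are limma estimates, bars their 95% intervals, and red marks an adjusted p under 0.05. All but 2 points lie left of 0, and 3 are red, in the L7, L13 and L19 groups.

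The size of the group's shift was no larger than the distance between arrays of the same genotype. Relative to each gene's own mean over the 6 arrays, the median over the 38 genes was -0.02 on WT replicate 1, 0.09 on WT replicate 2 and 0.25 on WT replicate 3. On the 35S::KLU arrays it was 0.04 on replicate 1, -0.14 on replicate 2 and -0.23 on replicate 3. The genotypes therefore overlapped, with 35S::KLU replicate 1 above WT replicate 1, and the means of these array medians were 0.11 ± 0.14 in WT and -0.11 ± 0.14 in 35S::KLU (SD over n = 3 per genotype).

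The genes moved together from array to array within a genotype. Of the 3 WT arrays, replicate 3 was the highest for all 38 genes and replicate 1 the lowest for 36, and across all probe sets those arrays held these ranks for 32.2% and 30.7%. Of the 35S::KLU arrays, replicate 1 was the highest for 37 genes and replicate 3 the lowest for 30, against 31.5% and 32.6% across all probe sets. Each 35S::KLU array was also set against each WT array, whatever its number. 35S::KLU replicate 1 was below WT replicate 1 for only 11 of the 38 genes (median difference 0.05). In every other pair 29 to 38 of the genes were lower in 35S::KLU, with median differences from -0.06 to -0.49. The largest shift was between 35S::KLU replicate 3 and WT replicate 3, with all 38 lower. Of all probe sets, 58.6% were lower in the first of these pairs and 51.5% in the last. The SD within WT had a median of 0.15 over the 38 genes, against 0.09 over all probe sets, and within 35S::KLU of 0.13 against 0.09. The comparison was not matched for signal, since 32 of the 38 genes lay above percentile 90 of all probe set means.

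**Figure D2:**
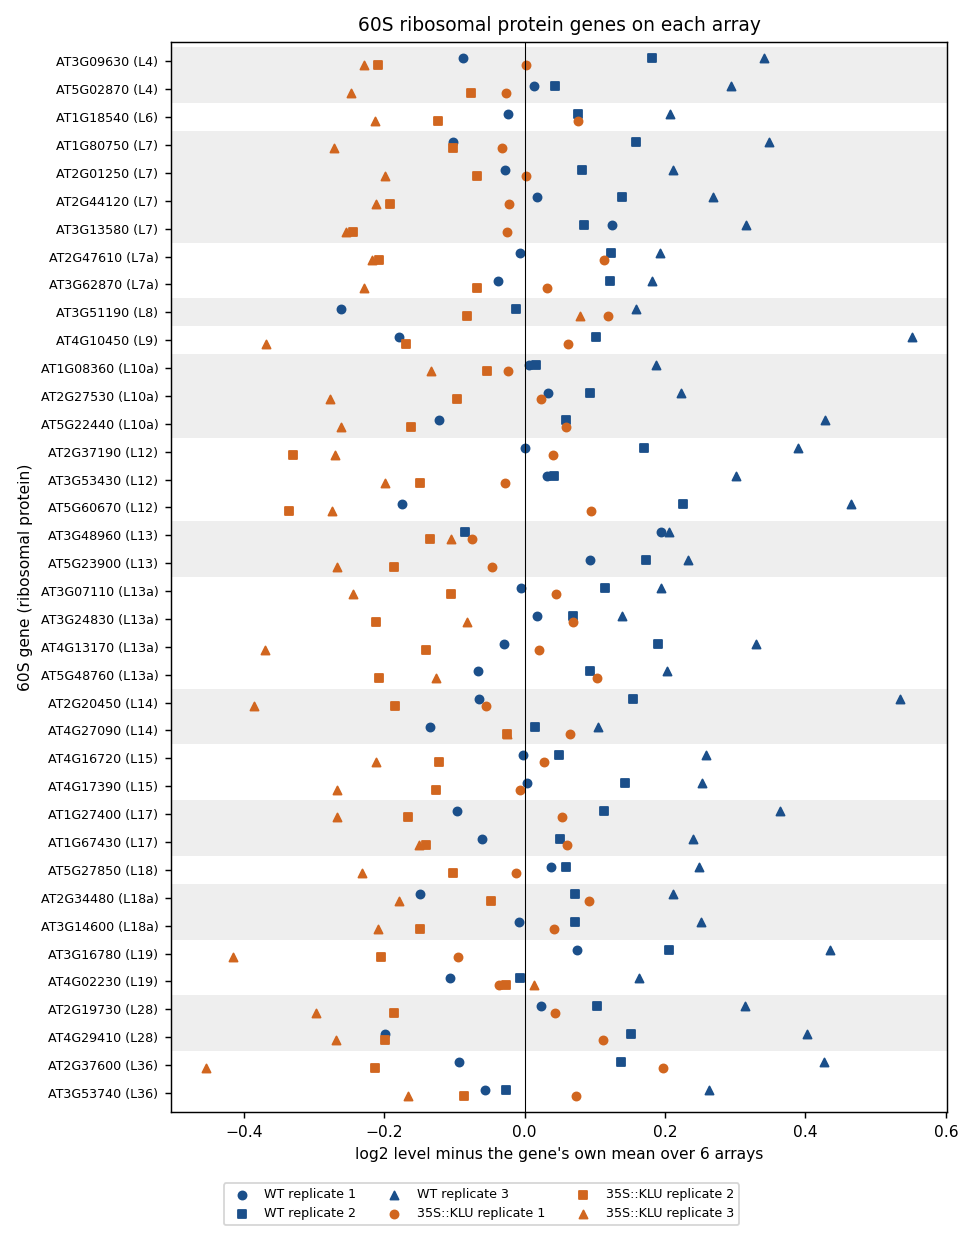
Log2 level of each 60S gene on each array minus the gene's own mean over 6 arrays (x axis), with 1 row per gene (y axis); blue symbols are WT, orange symbols 35S::KLU, and circle, square and triangle are replicates 1, 2 and 3. The blue triangles (WT replicate 3) lie right of the other WT arrays in all 38 rows, and orange circles (35S::KLU replicate 1) mix with blue circles; points of AT4G27090 on 35S::KLU replicates 2 and 3 coincide.

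Whether the genotypes overlapped depended on these arrays. The 3 values of 35S::KLU lay below the 3 of WT without overlap for 10 of the 38 genes (26.3%), and for 14.9% of all probe sets. No gene lay above without overlap, as 11.0% of all probe sets did. The 10 genes encode L4 (AT5G02870), L7 (AT3G13580 and AT2G44120), L10a (AT1G08360 and PGY1), L12 (AT3G53430), L13 (AT5G23900), L15 (AT4G17390), L18 (AT5G27850) and L19 (AT3G16780). The gap between the genotypes was at most 0.17 on the log2 scale, for AT3G16780, and 0.01 for PGY1 and AT4G17390. The count was 32 without 35S::KLU replicate 1 and 28 without WT replicate 1, with 21.5% and 21.1% of all probe sets. It was 10 or 11 without any 1 of the other 4 arrays, with 19.4 to 20.3% of all probe sets. The median difference was -0.30 and -0.28 without these arrays, and -0.15 without WT replicate 3. As a measure of RNA integrity, the 3′ signal less the 5′ signal of 3 control genes was averaged, and it lay between 1.89 and 1.94 on the 6 arrays (log2), and was 1.90 on WT replicate 3 and 1.94 on 35S::KLU replicate 3. The array correlations were 0.9952 to 0.9975 within and 0.9895 to 0.9931 across genotypes over all probe sets.

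The gene that fell most encodes L19, a protein that reaches from the 60S subunit toward the 40S subunit in a contact between them. AT3G16780 measured 9.45, 9.58 and 9.81 on the WT arrays and 9.28, 9.17 and 8.96 on the 35S::KLU arrays (log2, replicates 1 to 3). All 35S::KLU values were below all WT values, and the means were 9.61 ± 0.18 and 9.14 ± 0.16 (SD over n = 3 per genotype). The gene was 1.39-fold lower (log2 difference -0.48, SE 0.11, 95% interval -0.73 to -0.22, limma adjusted p = 0.030). Of 3 listed L19 loci 2 were measured. The other measured paralog, AT4G02230, did not pass, with 9.81, 9.91 and 10.08 in WT and 9.88, 9.89 and 9.93 in 35S::KLU. The 35S::KLU values of that paralog lay inside the WT range, and the difference was -0.03 (SE 0.08, 95% interval -0.22 to 0.15, limma adjusted p = 0.87).

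The second gene that fell encodes L13, a protein with no counterpart in bacterial ribosomes. AT5G23900 measured 10.31, 10.39 and 10.45 in WT and 10.17, 10.03 and 9.95 in 35S::KLU. The genotypes did not overlap, and the gene was 1.26-fold lower (log2 difference -0.34, SE 0.08, 95% interval -0.52 to -0.16, limma adjusted p = 0.032). The other measured L13 gene, AT3G48960, had a mean of 3.95 ± 0.16 in WT and 3.74 ± 0.03 in 35S::KLU (SD over n = 3 per genotype), below the lower quartile of probe set means (4.09), where RMA values understate differences. It differed by -0.21 (limma adjusted p = 0.20).

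The third encodes L7, which binds the large ribosomal RNA. AT3G13580 measured 9.25, 9.21 and 9.44 in WT and 9.10, 8.88 and 8.87 in 35S::KLU. These values did not overlap, and the gene was 1.28-fold lower (log2 difference -0.35, SE 0.09, 95% interval -0.56 to -0.15, limma adjusted p = 0.046). All 4 listed L7 genes were measured. The other 3 did not pass, with differences of -0.28 for AT2G44120 (limma adjusted p = 0.090), -0.27 for AT1G80750 and -0.18 for AT2G01250.

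None of these 3 calls held on all sets of arrays. AT3G16780 and AT5G23900 each lost the call when any of 4 arrays was left out, replicates 2 and 3 of either genotype, with limma adjusted p up to 0.11 and 0.12. AT3G13580 lost it in these cases and without WT replicate 1 (limma adjusted p up to 0.16) and under each of 3 other scalings (up to 0.062). By limma, the number of genes that fell was 0 without any 1 of those 4 arrays. It was 4 without 35S::KLU replicate 1 and 5 without WT replicate 1. Without any 1 of those 4 arrays, 5 to 12 genes had an unadjusted limma p under 0.05. The share of all probe sets at that p was not counted on these arrays, so the 5 to 12 have no background beside them. Calls were lost over the whole array too. Of all 22746 probe sets, 971 fell on the 6 arrays and 459 to 663 without any 1 of those 4. It was 814 without 35S::KLU replicate 1 and 932 without WT replicate 1.

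The paralog pairs for L14 and L19 differed most in their response among 28 pairs within 14 groups. L14, like L13, has no counterpart in bacterial ribosomes. AT2G20450 measured 9.00, 9.22 and 9.60 in WT and 9.01, 8.88 and 8.68 in 35S::KLU. Its highest 35S::KLU value overlapped the lowest WT value, and the difference was -0.42 (SE 0.14, 95% interval -0.74 to -0.09, limma adjusted p = 0.12). AT4G27090 measured 11.58, 11.73 and 11.82 in WT and 11.78, 11.69 and 11.69 in 35S::KLU. It showed no separation, with a difference of 0.01 (SE 0.08, 95% interval -0.17 to 0.19, limma adjusted p = 0.98).

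The response of the first L14 gene was thus 0.42 lower than that of its paralog on the log2 scale, and the response of the first L19 gene 0.44 lower. A two-tailed exact permutation test over arrays of the difference between paralogs gave p = 0.10 for both, the smallest p that 3 arrays against 3 allow, and 0.467 after Benjamini-Hochberg adjustment over the 28 pairs. In all, 6 pairs reached that smallest p, the others being in the L7 (2 pairs), L15 and L18a groups with differences of 0.17 or less in size. No pair could have passed 0.05 by this permutation test with this number of arrays.

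**Figure D3:**
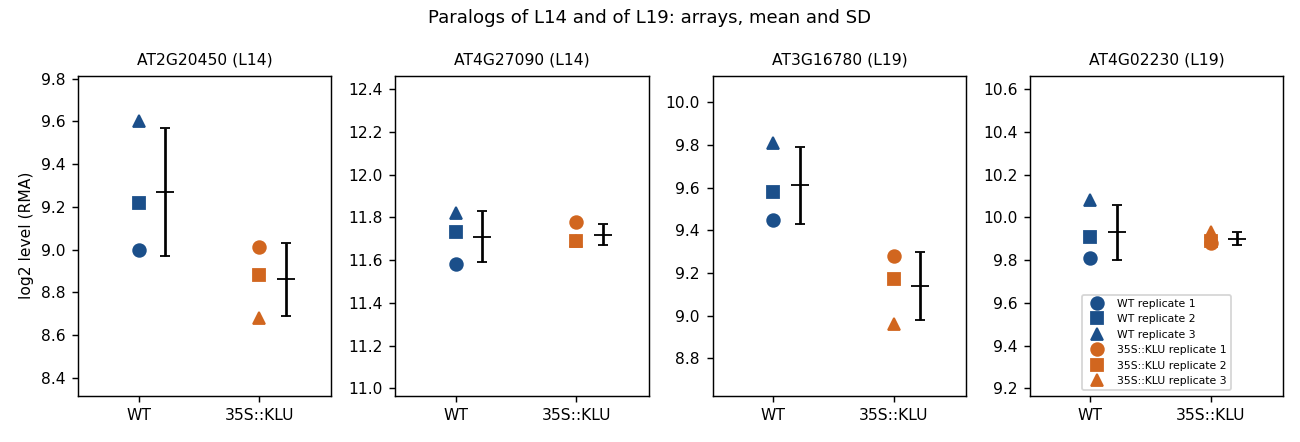
Log2 level (y axis, a span of 1.5 log2 units in each panel, not starting at 0) of the L14 and L19 paralogs on the 3 WT (blue) and 3 35S::KLU (orange) arrays, with symbols for the replicates as in the legend and black bars for the mean and SD. AT3G16780 separates by genotype, AT2G20450 nearly does, and AT4G27090 and AT4G02230 do not; the 35S::KLU replicates 2 and 3 of AT4G27090 coincide.

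Proteins near the sites of catalysis and of the tunnel gave differences below 0 in most genes and no call. L4 and L17 line the exit tunnel. Of the L4 genes, AT3G09630 differed by -0.29 (11.52, 11.79 and 11.95 in WT; 11.61, 11.40 and 11.38 in 35S::KLU; limma adjusted p = 0.18) and AT5G02870 by -0.24 without overlap (limma adjusted p = 0.19). The L17 genes AT1G27400 and AT1G67430 differed by -0.25 and -0.15, and their genotypes overlapped. L8 lies close to the peptidyl transferase centre. Its 1 measured gene, AT3G51190, had the highest difference of the 38 at 0.07 (4.20, 4.45 and 4.62 in WT; 4.58, 4.38 and 4.54 in 35S::KLU; SE 0.11, limma adjusted p = 0.77). Its genotypes overlapped, and its signal was dim beside the 8.02 to 12.20 of the 36 bright probe sets, a range of signal that does not rank abundance. L9 lies near the site where elongation factors bind, and AT4G10450 differed by -0.32 (limma adjusted p = 0.33), with the widest SD in WT of the 38 (0.37; 9.49, 9.77 and 10.22).

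The stalks of the subunit held no gene that passed either. L10a forms the mobile stalk beside the site where spent tRNA leaves, and one of its genes, PGY1 (PIGGYBACK1, AT2G27530), is known in Arabidopsis for mutants that enhance a leaf polarity defect. PGY1 measured 11.12, 11.18 and 11.31 in WT and 11.11, 10.99 and 10.81 in 35S::KLU. The values did not overlap, by a gap of 0.01, and the difference of -0.23 did not pass (SE 0.09, limma adjusted p = 0.17). The other L10a genes differed by -0.24 (AT5G22440) and -0.14 (AT1G08360). L12 sits at the base of the stalk that recruits elongation factors. AT2G37190 measured 11.29, 11.46 and 11.68 in WT and 11.33, 10.96 and 11.02 in 35S::KLU. The 35S::KLU value of replicate 1 lay inside the WT range, and the difference was -0.37 (SE 0.12, limma adjusted p = 0.10). Its paralogs AT5G60670 and AT3G53430 differed by -0.35 and -0.25.

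The remaining groups, whose proteins bind the ribosomal RNA mostly at the outside of the subunit, held no gene past the threshold. The 4 L13a genes ran from -0.33 (AT4G13170) to -0.15 (AT3G24830 and AT5G48760), with AT3G07110 at -0.20, and each overlapped. The L28 genes differed by -0.29 (AT2G19730) and -0.24 (AT4G29410), and the L36 genes by -0.32 (AT2G37600) and -0.12 (AT3G53740). The L15 genes differed by -0.27 (AT4G17390) and -0.20 (AT4G16720), and the L7a genes by -0.20 (AT2G47610) and -0.17 (AT3G62870). The L18 gene AT5G27850 differed by -0.23, the L18a genes by -0.21 (AT3G14600) and -0.09 (AT2G34480), and the L6 gene AT1G18540 by -0.18. The 2 probe sets that stand for a pair of genes, one for L6 and one for L9, differed by -0.19 and -0.07 and overlapped. By group means, 17 of the 18 ribosomal proteins lay lower in 35S::KLU, where 55.5% of all single probe sets did. The mean of the measured paralogs separated the genotypes for 4 of the 18, L7, L13, L18 (1 gene) and L19. Of all single probe sets, 14.9% lay lower without overlap. L7, L13 and L19 are the groups of the genes that fell, so their means are not separate from those calls.

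Other genes of the ribosome and its assembly also lay lower in 35S::KLU on the same arrays, and few passed. The counts that follow stand beside 4.27% of all probe sets that fell by the adjusted p and 12.4% that were lower at an unadjusted p under 0.05. Of 58 other loci for 60S proteins, 32 were measured, 0 passed limma's adjusted p of 0.05 and 17 had an unadjusted p under 0.05, all lower, with a median difference of -0.24. The 2 with the smallest p were AT1G07070 (-0.44, limma adjusted p = 0.067), a gene for L35a, and AT3G05560 (-0.33, limma adjusted p = 0.080), a gene for L22. All 14 genes for the P proteins, which form the stalk that binds elongation factors, were measured. Their median was -0.15, by limma 0 passed and 3 had an unadjusted p under 0.05, among them AT5G57290 and AT4G25890 (both -0.22). Of 97 listed 40S loci, 49 were measured, with a median of -0.20 (log2). Of these 3 fell (6.12%), and 19 had an unadjusted p under 0.05, 18 of them lower. The other was AT5G39850, singled out after its values were seen, at 0.37 (limma adjusted p = 0.19). Those that fell were AT4G30800 (-0.39, limma adjusted p = 0.045), which encodes S11, and the S19 genes AT5G15520 (-0.32, limma adjusted p = 0.039) and AT3G02080 (-0.28, limma adjusted p = 0.041). AT3G02080 measured 11.62, 11.64 and 11.68 in WT and 11.44, 11.38 and 11.29 in 35S::KLU, without overlap and with a WT SD of 0.03.

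Of 24 ribosome assembly genes 9 were measured, all 9 with a lower mean in 35S::KLU and a median difference of -0.32. By limma 0 passed the adjustment, and 6 had an unadjusted p under 0.05. The 2 with the smallest p encode partners in the maturation of the large subunit RNA, the WDR12 gene AT5G15550 (-0.33, limma adjusted p = 0.069) and the PESCADILLO gene AT5G14520 (-0.33, limma adjusted p = 0.11). Of 24 nuclear genes for plastid 50S proteins 7 were measured, with a median of -0.15 and, by limma, 0 past the adjustment and 1 at an unadjusted p under 0.05. The 2 with the smallest p were AT2G43030 (-0.18) and AT3G54210 (-0.16). The 2 measured genes for elongation factor 1B differed by -0.07 (AT5G19510) and 0.05 (AT5G12110), and RAPTOR1 of the TOR kinase complex, which controls ribosome synthesis, by -0.13, none of them past the threshold.

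The order of the arrays seen for the 60S genes was close to that of the 40S and assembly genes. On WT replicates 1 to 3 the median of the 49 40S genes relative to their own means was 0.01, 0.08 and 0.24, and on the 35S::KLU replicates 0.02, -0.12 and -0.21. For the 9 assembly genes it was -0.07, 0.18 and 0.32, then -0.04, -0.14 and -0.30. The 7 nuclear genes for plastid 50S proteins shared part of it, with 0.10, -0.02 and 0.11, then 0.05, -0.16 and -0.12. The median over all 13356 genes stayed between -0.01 and 0.02 on the 6 arrays. RMA sets the arrays to a common distribution, so a median near 0 over all genes is largely fixed by the scaling. It was not matched for signal to the ribosomal genes.

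**Figure D4:**
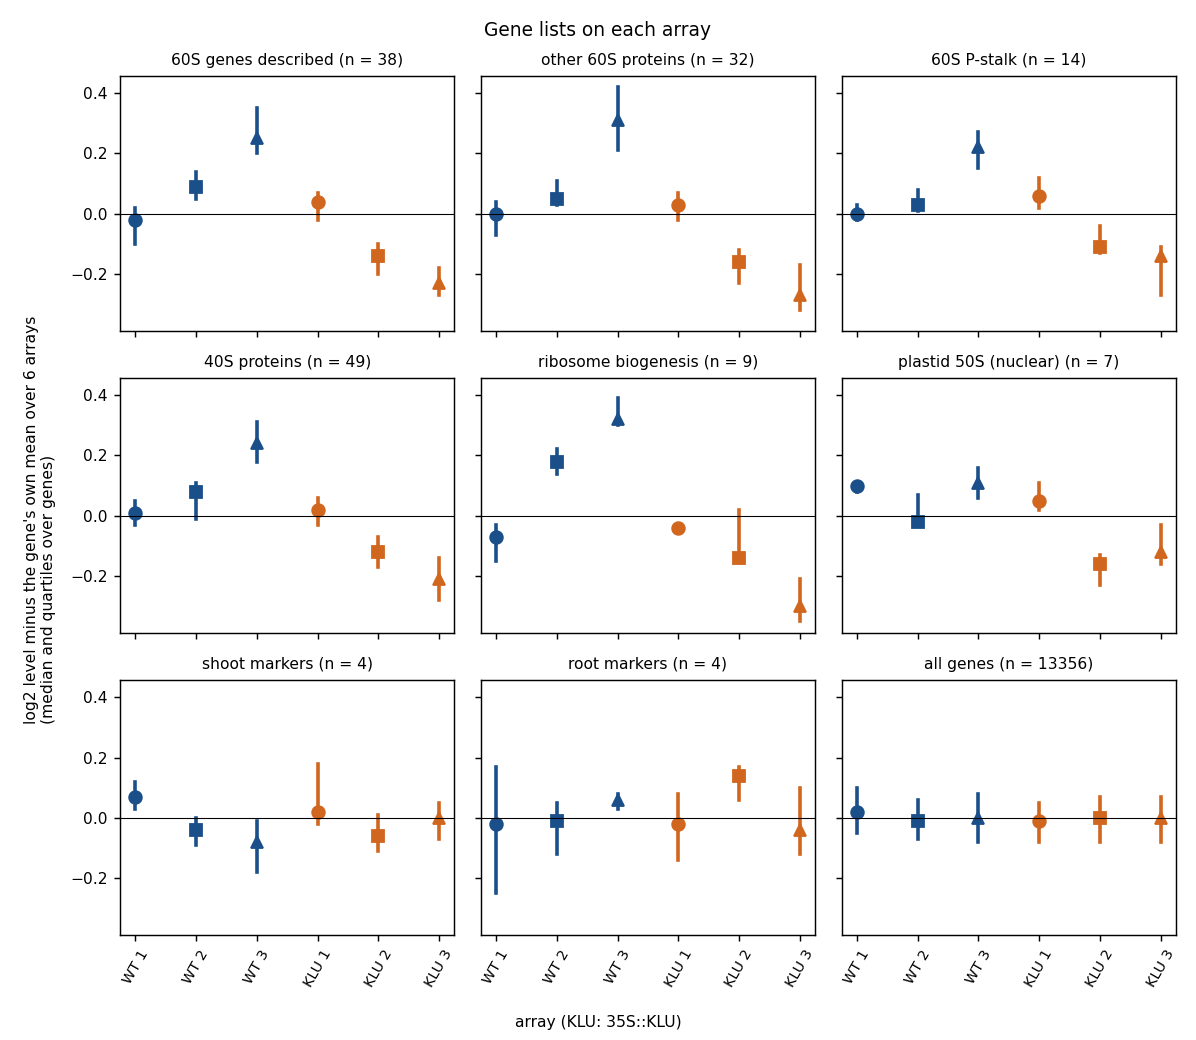
Log2 level minus each gene's own mean over 6 arrays (y axis) on each array (x axis) for 9 sets of genes; symbols are medians over genes, bars run from the lower to the upper quartile, blue is WT and orange 35S::KLU. WT replicate 3 is high and 35S::KLU replicates 2 and 3 are low in the 4 panels of cytosolic ribosomal proteins and in the assembly panel. In the plastid 50S panel 35S::KLU replicates 2 and 3 are low too, and WT replicates 1 and 3 are about level. All medians in the panel of all genes lie between -0.01 and 0.02, which the RMA scaling largely fixes.

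Markers of tissue were read as whole lists on the same arrays. Of 16 shoot markers 4 were measured, RCA (14.19 ± 0.04 in WT and 14.07 ± 0.09 in 35S::KLU), LHCB4.1, LHCB4.2 and LHCB4.3, and their medians by array lay between -0.08 and 0.07 with no separation. Of 9 root markers 4 were measured, with medians between -0.04 and 0.14. EXPA7 and AT5G17820 lay near or below the lower quartile of probe set means in WT (4.22 ± 0.05 and 3.52 ± 0.16), EXPA18 was at 4.87 ± 0.18, and PYK10 was at 10.25 ± 0.26 in WT and 10.68 ± 0.15 in 35S::KLU (SD over n = 3 per genotype; limma adjusted p = 0.078), without overlap. Of 16 markers of dividing cells 3 were measured. The MCM7 gene PRL fell (-0.33, limma adjusted p = 0.041), and AUR2 and AUR1 differed by -0.18 and -0.14. Their median by array was 0.22, -0.04 and 0.13 on the WT arrays and -0.07, -0.06 and -0.18 on the 35S::KLU arrays. WT replicate 1, the lowest WT array for the 60S genes, was thus the highest for these 3. Among the 35S::KLU arrays, replicate 3 was the lowest both for these 3 and for the 60S genes. The part of dividing cells in the values of the 60S genes was not tested.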

How the data were processed

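RNA from shoots of 3 WT and 3 35S::KLU samples was hybridised to 1 ATH1 array each. The deposited table holds log2 values made by the authors with RMA, per the submitters' processing notes, which name no version. RMA removes background, quantile-normalizes across arrays and combines a set's probes by median polish. No genome build, detection call or sequence was used here.

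Of 22810 probe sets 64 controls were left out, and 22746 were tested with limma 3.58.1 in R 4.3.3 (lmFit and eBayes, 35S::KLU minus WT, two-tailed, Benjamini-Hochberg adjustment, threshold 0.05). The annotation pairs 13513 probe sets with 1 gene, 503 with several and 8730 with none. Gene names come from the RefSeq table of assembly TAIR10.1, which 13436 of the 13513 matched. Paralog pairs were tested with scipy 1.17.1, and plots were made in matplotlib 3.10.9. On simulated data limma recovered 4% of 50 probe sets changed by 0.3, 54% of 50 changed by 0.5 and 96% of 50 changed by 1 (log2), with 6 false calls among 22746. Only 50 probe sets were changed at each size, while 971 passed as lower and 922 as higher on the real arrays. The cutoff set by the adjustment depends on how many probe sets change. These rates therefore do not give the share of real differences that was recovered.

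The 38 genes, the 10 comparison lists and the rule for named genes were chosen with earlier results of these data known. All 60S genes could be named, and of each list the genes that passed, or else the 2 with the smallest p, beside the tissue markers, which are all given. Values set per array are relative to a gene's own mean over 6 arrays. The planned counts of promoter motifs and protein identities were not made, since no sequences were used. Precision is limited by the number of arrays. Alternatives were 3 other scalings, array weights, the replicate number as a block, each array left out, eBayes with trend and robust estimation, dim probe sets left out, and 1 row per gene.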

Additional observations from a re-analysis of the deposited data

How the results depend on the processing

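The median difference of the 60S genes was below 0 under all 14 alternatives, between -0.30 and -0.15 with 1 array left out and between -0.24 and -0.19 otherwise. The number of genes that fell was 3, and it was 9 with array weights and between 0 and 5 with 1 array left out. The lower calls over all 22746 probe sets went from 971 to 1545 and to between 459 and 932 in these settings. The weight was 2.767 for WT replicate 2 and 0.531 for WT replicate 1, the lowest WT array for the 60S genes. The other arrays had weights of 0.811 to 1.007, so the count of 9 leans on WT replicate 2. With the replicate number as a block (replicate block) 0 passed by limma, with 647 lower calls over all probe sets. AT3G16780, AT5G23900 and AT3G13580 thus each lost their call (limma adjusted p = 0.087, 0.088 and 0.091). Of the 38, 11 had an unadjusted limma p under 0.05 with the block, all lower. The share of all probe sets at that p was not counted there. Same-numbered arrays of the 2 genotypes deviated together with correlations of -0.20, 0.04 and -0.06, so the number was not taken to pair the samples. Arrays of unlike number gave -0.15 to 0.21, the highest for WT replicate 3 with 35S::KLU replicate 1. No label ties an array to an experiment, so a pairing under other numbers was not tested. The number that rose was 0 under all 14, with 0 at an unadjusted p under 0.05 on all 6 arrays. The number without overlap was 10, between 7 and 9 under the other scalings (12.1 to 13.9% of all probe sets) and between 10 and 32 with 1 array left out. It was 10 or 11 on leaving out replicate 2 or 3 of either genotype, where 19.4 to 20.3% of all probe sets did not overlap. Over all probe sets the 3 scalings turned 971 lower and 922 higher calls into 845 to 924 lower and 971 to 1085 higher. The sign held for 35 of 38 genes. AT4G27090 (0.01) was at -0.01 with array weights and between -0.06 and 0.06 with 1 array left out, AT4G02230 (-0.03) was at 0.00 under cyclic loess and between -0.09 and 0.04, and AT3G51190 (0.07) lay between -0.04 and 0.17. Why these values moved was not tested beyond the arrays named. With 1 averaged row per gene 2 of the 38 fell, and AT3G13580 lost its call (limma adjusted p = 0.052). On these rows 17 of the 38 had an unadjusted limma p under 0.05, and the share of all rows at that p was not counted. Each of the 38 has 1 probe set, so averaging left their values unchanged and only the set of tested rows differed. Of the 13356 rows, 404 fell. Signal over background could not be judged for the 2 dim genes, AT3G48960 and AT3G51190, without detection calls.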
